A study of Mus musculus with 8 samples.

Results

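The genes described here encode receptors through which nerves and hormones reach bone marrow stroma: Calcrl, its partners Ramp1, Ramp2 and Ramp3, the ligand gene Adm, the adrenergic receptor genes Adrb1 and Adrb3, and the parathyroid hormone receptor gene Pth1r. All 8 were found by symbol in a matrix of 52636 genes. The libraries hold bulk polyA RNA of mesenchymal stem cells with the leptin receptor on their surface (LEPR+), sorted from bone marrow of C57BL/6 mice. The LTβR-Ig group had received a soluble decoy of the lymphotoxin β receptor (LTβR), and the control group HEL-Ig, an IgG1 against hen egg lysozyme. Each was given intravenously at 150 µg, 1 dose a week for 3 weeks, with 4 libraries per group, and both act on the whole animal. The sort took LEPR+ cells that lacked CD45, Ter119, CD31 and CD144. The labels name no individual mice, so errors and p-values reflect only how far the libraries of a group differ, which may be technical.

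The 8 genes were picked by role, with results of LTβR-Ig against control in these libraries already known. Their differences between the groups are therefore given as a description, with standard errors and without p-values.

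CALCRL is a receptor that needs a RAMP partner to reach the cell surface. With RAMP1 it binds calcitonin gene-related peptide (CGRP), a peptide of sensory nerves, and with RAMP2 or RAMP3 it binds adrenomedullin, the product of Adm. Noradrenaline from sympathetic nerves acts on adrenergic receptors, and in mouse marrow the β3 receptor on stromal cells is known for its part in the daily release of stem cells. PTH1R binds parathyroid hormone and its related protein and is a main regulator of osteoblasts. These receptors act largely through the G protein Gs and cyclic AMP.

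Total counts lay between 52378101 and 64403177 per library. Markers of the sorted population were present: Lepr was at 3907 ± 554 CPM (counts scaled to a common library size) in LTβR-Ig and 4305 ± 45.9 CPM in control libraries, and Cxcl12, a chemokine of these cells, at 19066 ± 2210 and 16378 ± 2252 CPM (SD, n = 4 each). Markers of endothelial cells, which the gate removes and which also make Calcrl, Ramp2, Ramp3 and Adm, were low but present. The summed level of 22 such markers was 70.4, 164, 548 and 252 CPM in LTβR-Ig replicates 1 to 4, and 133, 116, 193 and 311 CPM in control replicates 1 to 4. LTβR-Ig replicate 3 was the highest. Summed megakaryocyte and platelet markers also peaked in LTβR-Ig replicate 3 and control replicate 4 within their groups, at 3962 and 2813 CPM. These sums therefore do not separate the cell types. Erythroid markers were far higher than endothelial ones. Summed over 13 genes, they lay at 23058 to 43095 CPM with LTβR-Ig and 22711 to 56326 CPM in control libraries. In bulk RNA, fewer cells of a type and less RNA per cell cannot be told apart.

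Calcrl (chr2:84330626-84425411 in mm10, minus strand) was the tested gene of this group whose levels did not overlap between LTβR-Ig and control. It was at 39.5, 44.8, 59.8 and 49.8 CPM in LTβR-Ig replicates 1 to 4, against 94.0, 111, 113 and 96.6 CPM in control replicates 1 to 4. All 4 LTβR-Ig libraries lay below the lowest control library. The means were 48.5 ± 8.62 CPM with LTβR-Ig and 104 ± 9.87 CPM in control (SD, n = 4 each), a log2 fold change of -1.10 (SE 0.15), or 46.7% of the control level. Of all 16045 genes tested, 4.36% had a lower log2 fold change than Calcrl, and 2.53% (406 genes) were lower without overlap between the groups. A further 2.36% were higher without overlap, 4.89% in all.

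Levels of endothelial markers are given beside Calcrl, and the part of endothelial RNA in its difference was not tested. The summed level of these markers had a ratio of means of 1.37 (LTβR-Ig over control), and 19 of 21 tested markers had a positive log2 fold change, none with an unadjusted edgeR p under 0.05. LTβR-Ig replicate 3, at 548 CPM, weighed most in that ratio. The other LTβR-Ig libraries were at 70.4, 164 and 252 CPM, all below the highest control at 311 CPM. The markers were read in the same libraries, so their signs are not independent. Ecscr was the 1 marker below all controls in every LTβR-Ig library, at 0, 2.68, 4.87 and 4.12 CPM with LTβR-Ig and 9.22, 13.6, 17.2 and 12.6 CPM in control, and it was among the markers with a negative log2 fold change. No endothelial marker was at 0 in all 8 libraries. The number at 0 was 6, 3, 1 and 0 in LTβR-Ig replicates 1 to 4, and 1 in each control library. Within the LTβR-Ig group, replicate 3 had both the highest Calcrl level and the highest endothelial sum. Within the control group the highest values fell in different libraries. Calcrl was highest in control replicate 3, at 113 CPM with an endothelial sum of 193 CPM. The endothelial sum was highest in control replicate 4, at 311 CPM with Calcrl at 96.6 CPM. Without LTβR-Ig replicate 3 the log2 fold change of Calcrl was -1.21, and over all 8 libraries left out in turn it lay between -1.21 and -1.01.

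**Figure D1:**
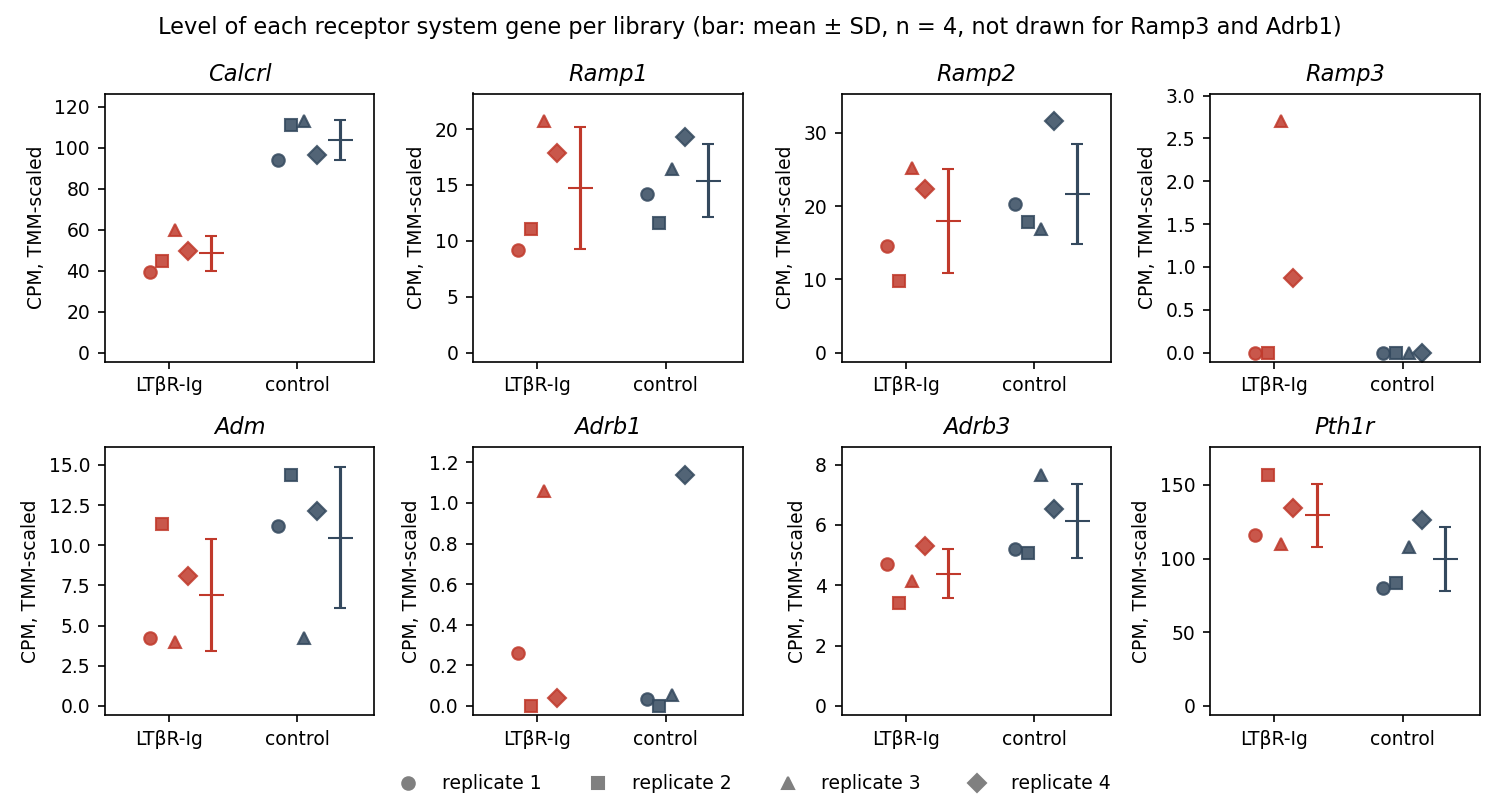
Level of each gene in every library, in CPM, with LTβR-Ig left of control; symbols mark the replicate number and bars the mean ± SD of 4 libraries. The 4 Calcrl values with LTβR-Ig (39.5 to 59.8 CPM) lie below the 4 control values (94.0 to 113 CPM), while the other genes overlap or are near 0.

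The calls over all genes were few. By edgeR's quasi-likelihood test 6 of 16045 genes (0.0374%) passed an adjusted p of 0.05, all lower with LTβR-Ig, and none of the 6 tested receptor system genes was among them. At an unadjusted p under 0.05, 470 genes were lower and 544 higher. Calcrl was among the genes called lower by DESeq2 (111 of 15621 genes, 0.711%), by limma-voom (12 of 16045, 0.0748%) and by edgeR after a stricter filter on low counts (17 of 10952, 0.155%). No other alternative run called it. Those were edgeR with other scalings, with no filter, with a replicate block, and with libraries left out. As Calcrl was picked with this contrast in view, nothing is read from these counts.

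The bases upstream of the annotated start are shown for Calcrl and for Pth1r, the receptor genes of this group with the highest levels. Their log2 fold changes had opposite signs, -1.10 (SE 0.15) and 0.38 (SE 0.18), but the groups overlapped for Pth1r. They come from RefSeq on GRCm38.p6 (mm10), each read on the minus strand and ending at the base before the start of the gene in GENCODE M21. No annotated exon overlaps them. Capitals mark an NF-κB type motif, GGGNNNNNCC, and the cyclic AMP response half-site TGACG, searched on both strands; in Pth1r the half-site reads CGTCA on the strand shown.
Calcrl, chr2:84425412-84425516: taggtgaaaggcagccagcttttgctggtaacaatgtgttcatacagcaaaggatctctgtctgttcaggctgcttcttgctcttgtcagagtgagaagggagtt
Pth1r, chr9:110747146-110747395: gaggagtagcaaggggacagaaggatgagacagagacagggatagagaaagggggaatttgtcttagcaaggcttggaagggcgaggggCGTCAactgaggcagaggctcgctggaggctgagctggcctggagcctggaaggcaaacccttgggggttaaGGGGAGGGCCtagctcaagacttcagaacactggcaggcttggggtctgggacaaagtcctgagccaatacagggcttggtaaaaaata
Neither motif was found in the Calcrl stretch, nor in its whole RefSeq window from 250 bases before to 50 bases after the start. The Pth1r stretch held 1 of each, and they did not overlap. Of 32851 promoter windows of that length, 50.8% held GGGNNNNNCC and 20.8% held TGACG. Of the other Pth1r start windows in the table, 1 held neither motif and 1 held 3 matches to GGGNNNNNCC. Ramp3 had 4 matches to GGGNNNNNCC, Adrb1 had 1 of each motif, Ramp1 had 1 TGACG and Adm neither. Ramp2 and Adrb3 were not in the table. A match says only that these letters are there.

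The levels of Ramp1 and Ramp2, partners of CALCRL, overlapped between the groups. Ramp1 (chr1:91179822-91225196, plus strand), the partner for CGRP, was at 9.14, 11.1, 20.7 and 17.9 CPM in LTβR-Ig replicates 1 to 4 and 14.2, 11.6, 16.4 and 19.3 CPM in control replicates 1 to 4. The groups overlapped, and the log2 fold change was -0.07 (SE 0.31), with values of -0.27 to 0.11 when each library was left out. Ramp2 (chr11:101246028-101259546, plus strand), the partner for adrenomedullin, was at 14.5, 9.81, 25.2 and 22.3 CPM in LTβR-Ig replicates 1 to 4 and 20.3, 17.8, 16.9 and 31.6 CPM in control replicates 1 to 4. The groups again overlapped (log2 fold change -0.27, SE 0.34). Leaving out each library gave -0.47 to -0.03, the smallest differences being -0.07 when LTβR-Ig replicate 2 was dropped and -0.03 when control replicate 4 was dropped. LTβR-Ig replicates 3 and 4 and control replicate 4, which had the highest Ramp2 levels, also had the highest summed endothelial levels, and the part of endothelial RNA in Ramp2 was not tested. Ramp2 shares 1103 bp of exon with Vps25 on the same strand, so its count may miss or hold reads of that gene, which had 1286 to 2744 counts per library.

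Ramp3 (chr11:6658521-6677475, plus strand), the other adrenomedullin partner, had 0, 0, 153 and 45 counts in LTβR-Ig replicates 1 to 4 and 0 counts in all 4 control libraries. A count of 0 allows up to 3 counts in each such library, for counting error only. Ramp3 was too low to be tested. The libraries with Ramp3 counts, LTβR-Ig replicates 3 and 4, had summed endothelial levels of 548 and 252 CPM, but control replicate 4, at 311 CPM, had no Ramp3 count. The part of endothelial RNA in Ramp3 was not tested.

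Per exon length, Ramp1 and Ramp2 made up nearly all Ramp RNA. Ramp1 took 45.6 ± 6.67% of the summed Ramp TPM (counts divided by exon length and scaled to a common total) in LTβR-Ig and 44.1 ± 5.03% in control libraries, and Ramp2 took 50.3 ± 6.47% and 55.9 ± 5.03% (SD, n = 4 each). The shares of both genes overlapped between the groups. The split depends on the length used: with the length of the principal transcript, Ramp1 took 29.1% and 26.9% and Ramp2 68.6% and 73.1% (LTβR-Ig and control means). Ramp3 reached 11.9% in LTβR-Ig replicate 3 and 4.76% in replicate 4. Without replicate 3 its mean share in LTβR-Ig libraries was 1.59%, against 4.16% with it.

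The ratio of Calcrl to its partners had a lower mean with LTβR-Ig. The ratio of Calcrl TPM to summed Ramp TPM was 1.09, 1.38, 0.745 and 0.765 in LTβR-Ig replicates 1 to 4, against 1.77, 2.46, 2.20 and 1.24 in control replicates 1 to 4. Control replicate 4 lay inside the range of the LTβR-Ig libraries, so the groups overlapped. The means were 0.996 ± 0.302 with LTβR-Ig and 1.92 ± 0.535 in control (SD, n = 4 each), while summed Ramp TPM was 28.3 ± 11.8 and 30.2 ± 7.26. With the length of the principal transcript, a choice added after the values were seen, the ratio was 0.487 ± 0.154 with LTβR-Ig and 0.901 ± 0.263 in control (SD, n = 4 each), and control replicate 4 again lay inside the LTβR-Ig range.

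**Figure D2:**
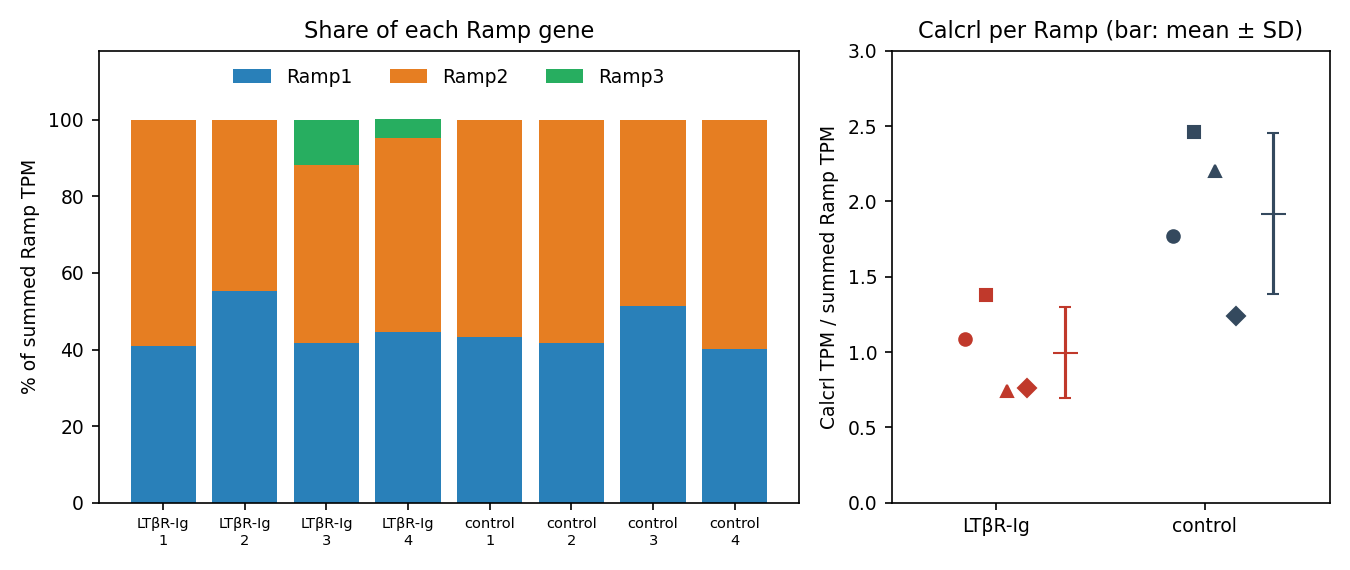
Left, percent of summed Ramp TPM taken by each Ramp gene in each library, with the 4 LTβR-Ig libraries before the 4 control libraries; right, Calcrl TPM divided by summed Ramp TPM, with bars for the mean ± SD of 4 libraries. Ramp1 and Ramp2 share the total in every library, Ramp3 appears in LTβR-Ig replicates 3 and 4 alone, and the ratio averages 0.996 with LTβR-Ig against 1.92 in control.

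Adm (chr7:110627661-110629820, plus strand), the adrenomedullin gene, varied widely within both groups. It was at 4.21, 11.3, 3.95 and 8.07 CPM in LTβR-Ig replicates 1 to 4 and 11.2, 14.4, 4.21 and 12.1 CPM in control replicates 1 to 4. The groups overlapped because control replicate 3 lay as low as LTβR-Ig replicates 1 and 3, and because LTβR-Ig replicate 2 lay among the other controls. The log2 fold change was -0.61 (SE 0.48), and it was -1.22 without LTβR-Ig replicate 2 and control replicate 3, libraries that lie at opposite ends of principal component 1. Without LTβR-Ig replicate 2 alone it was -0.95, and without LTβR-Ig replicate 3 it was -0.41. The choice to leave out that pair was made after the values were seen.

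Counts of other peptide ligands of these receptor families were at or near 0. The ligand genes Calcb, Adm2, Iapp and Pth, and Calcr, which encodes the calcitonin receptor, had 0 counts in all 8 libraries. Calca, which encodes CGRP and calcitonin, had 59 counts in control replicate 4 and 0 in the other 7 libraries. Pthlh, which encodes the parathyroid hormone-related protein, had 86 and 33 counts in LTβR-Ig replicates 1 and 4 and 0 in the others.

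Of the adrenergic receptors chosen, Adrb3 (chr8:27225776-27250616, minus strand) was the one detected in every library. It was at 4.70, 3.40, 4.13 and 5.29 CPM in LTβR-Ig replicates 1 to 4, from 180 to 290 counts, and at 5.21, 5.08, 7.67 and 6.52 CPM in control replicates 1 to 4, from 326 to 430 counts. In 3 of 4 LTβR-Ig libraries it lay below all controls, and replicate 4 overlapped them. The log2 fold change was -0.48 (SE 0.32), or 71.6% of the control level, and lay between -0.59 and -0.35 when each library was left out. Adrb3 shares 839 bp of exon with Gm45470 on the opposite strand, which had 0 to 132 counts, and without a stated strand setting reads of the pair cannot be told apart.

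Adrb1 (chr19:56722199-56733113, plus strand), the β1 receptor gene, was near 0 in most libraries. It had 16, 0, 60 and 2 counts in LTβR-Ig replicates 1 to 4 and 2, 0, 3 and 67 counts in control replicates 1 to 4, and was too low to be tested. The highest libraries, LTβR-Ig replicate 3 and control replicate 4, also had the highest summed levels of several marker lists in their groups. These were megakaryocyte markers at 3962 and 2813 CPM, endothelial markers at 548 and 311 CPM, macrophage and monocyte markers at 7290 and 6858 CPM, and neutrophil markers at 9160 and 9494 CPM. The macrophage and monocyte list holds Vcam1, which is also on the list of LEPR+ stromal cells. Vcam1 made up most of that sum, at 4664 of 6595 CPM with LTβR-Ig and 4385 of 6271 CPM in control (means). The sum is therefore not a measure of macrophage RNA alone. The megakaryocyte sum ranged from 979 to 3962 CPM with LTβR-Ig and from 651 to 2813 CPM in control, and none of the 12 megakaryocyte markers was at 0 in any library. The part of any of these cells in Adrb1 was not tested.

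Per exon length, Adrb3 was at 3.38 ± 0.744 TPM in LTβR-Ig and 4.69 ± 0.788 TPM in control libraries (SD, n = 4 each). Among the α receptor genes Adra2b had the highest mean, at 8.84 ± 3.47 TPM with LTβR-Ig and 6.27 ± 3.85 TPM in control (SD, n = 4 each). Its lowest library, at 3.07 TPM, lay within the range of Adrb3. Adra1a and Adra1d had counts in 1 of 8 libraries each.

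Pth1r (chr9:110722085-110747145, minus strand) was the most abundant gene of the group. It was at 116, 157, 110 and 134 CPM in LTβR-Ig replicates 1 to 4 and 80.0, 83.6, 108 and 126 CPM in control replicates 1 to 4. LTβR-Ig replicates 2 and 4 lay above all controls, and the other LTβR-Ig libraries lay within the control range. The means were 129 ± 21.1 and 99.4 ± 21.7 CPM (SD, n = 4 each), a log2 fold change of 0.38 (SE 0.18) that lay between 0.27 and 0.51 when each library was left out. Within the control group Pth1r was highest in replicate 4, which also had the highest summed level of 14 osteoblast and osteocyte markers, 25938 CPM against 12024 to 16993 CPM in the other controls. In LTβR-Ig libraries that sum was 13109, 21246, 17278 and 21742 CPM, with replicates 2 and 4 highest for both measures. Of the 14 markers, Sost, an osteocyte gene, was at 0 in all 8 libraries. The part of osteoblast RNA in Pth1r was not tested. Some of these markers, such as Ibsp at 11365 ± 4784 CPM in LTβR-Ig and 11893 ± 3360 CPM in control libraries (SD, n = 4 each), were also among the most abundant transcripts of the sorted cells.

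**Figure D3:**
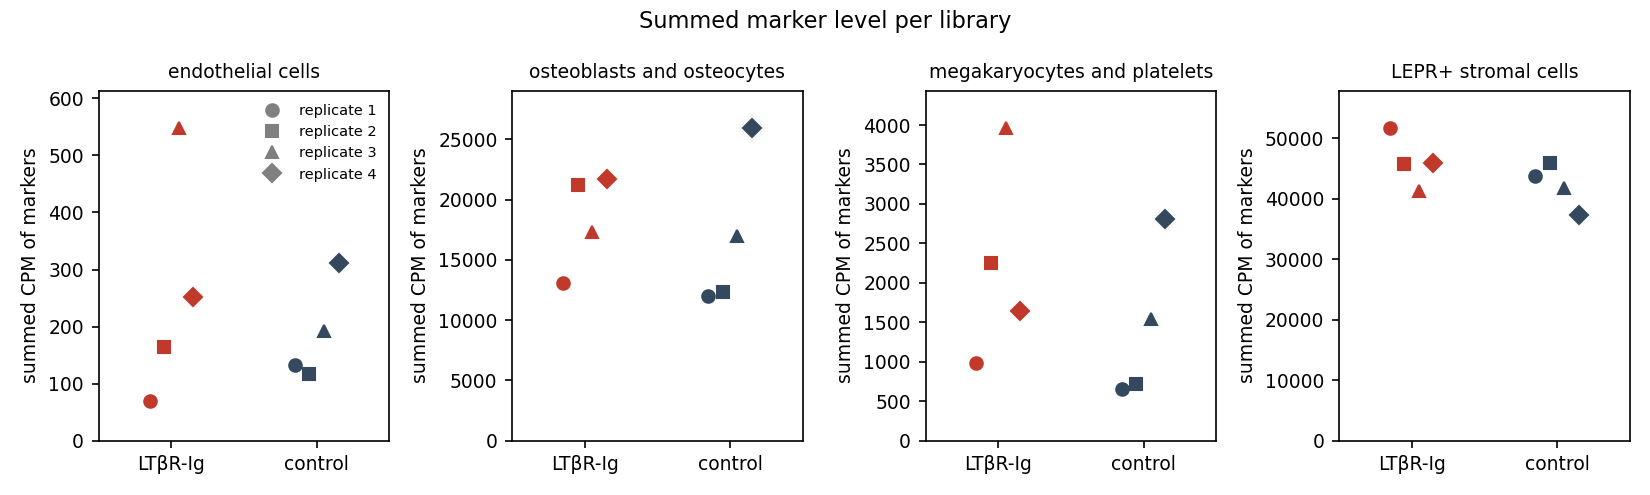
Summed CPM of markers of endothelial cells, of osteoblasts and osteocytes, of megakaryocytes and platelets and of LEPR+ stromal cells in each library, with LTβR-Ig left of control and symbols for the replicate number. LTβR-Ig replicate 3 has the highest endothelial sum, 548 CPM, and control replicate 4 the highest osteoblast sum, 25938 CPM.

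Set per exon length over all 8 libraries, the order of levels was Pth1r (mean 101 TPM), Calcrl (40.5), Ramp2 (15.6), Adm (14.0), Ramp1 (12.9), Adrb3 (4.03), Ramp3 (0.821) and Adrb1 (0.244 TPM). Pth1r ranked 1376 and Calcrl 3090 among 25872 genes with any count. Pth1r lay above Calcrl in every library, at 94.0 to 135 against 22.0 to 30.5 TPM with LTβR-Ig and 70.5 to 110 against 49.7 to 62.4 TPM in control. Ramp2, Adm and Ramp1 did not differ beyond their spread in either group, and neither did Ramp3 and Adrb1. Adrb3 lay below Ramp1 in all libraries, at 2.52 to 4.19 against 8.20 to 17.1 TPM with LTβR-Ig and 3.98 to 5.68 against 10.6 to 16.4 TPM in control. The order depends on the length used. With the length of the principal transcript, Ramp2 stood at a mean of 28.0 TPM in LTβR-Ig and 33.7 TPM in control libraries. Calcrl was then at 18.2 and 39.1 TPM, so Ramp2 lay above it with LTβR-Ig and below it in control. Ramp1 was lower than both, at 11.6 and 12.1 TPM.

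**Figure D4:**
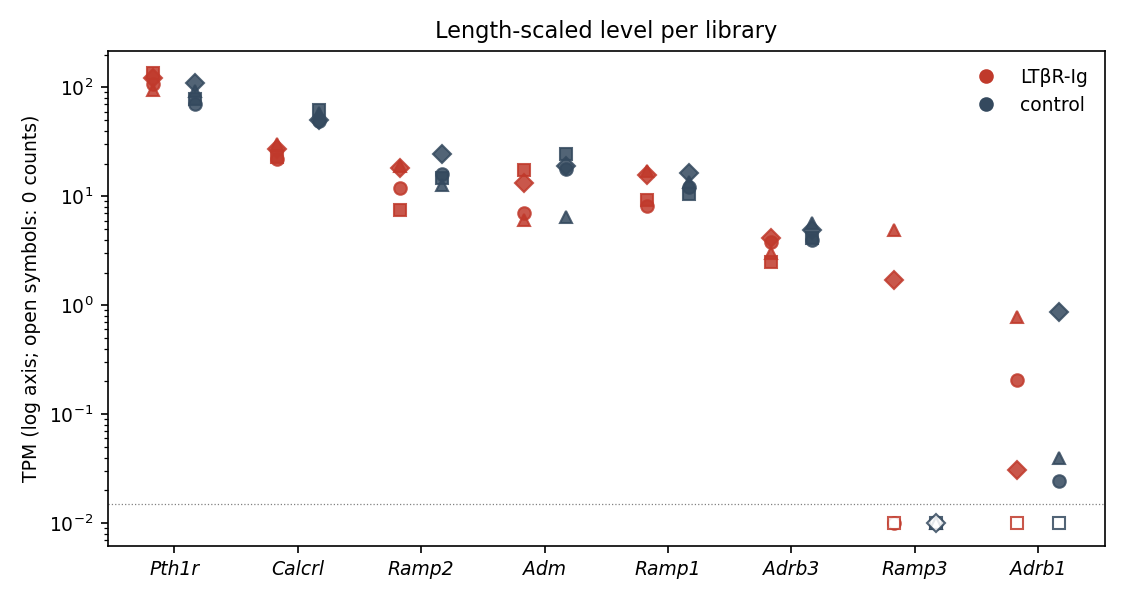
TPM of each gene in every library on a log axis, LTβR-Ig left of control, with open symbols under the dotted line for libraries with 0 counts. Pth1r is highest, Calcrl follows with separated groups, and Ramp3 and Adrb1 are near or at 0 in most libraries.

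The genes whose levels followed Calcrl most closely within the groups were Apobr, a lipoprotein receptor gene, Exoc2, an exocyst subunit gene, and Pnpla2, a triglyceride lipase gene, with Pearson's r of 0.981, 0.979 and 0.969 on log2 CPM over 8 libraries with the group means removed. For Pth1r they were Map7d1, Gpc1, a heparan sulfate proteoglycan gene, and Dse, with r of 0.968, 0.964 and 0.951. These are the highest of 10580 genes compared, over few libraries that share their depth and sort, and are a description only. The log2 fold changes of Apobr, Exoc2 and Pnpla2 were 0.19, 0.09 and 0.39, against -1.10 for Calcrl.

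Genes around these receptors were compared in 8 lists chosen by function, with 190 different genes, of which 141 could be tested. None passed in the edgeR test. At an unadjusted edgeR p under 0.05, 7 of 141 were lower and 12 of 141 higher. Over all 16045 tested genes 470 (2.93%) were lower and 544 (3.39%) higher. DESeq2 called 6 of them, 4 higher and 2 lower, against 90 (0.576%) higher and 111 (0.711%) lower of the 15621 genes it adjusted. By limma-voom none was called. The lists were chosen with earlier results of these data known, so nothing is read from these counts.

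Handling of the peptides was represented by Mme and Pam. Mme, the membrane protease neprilysin that degrades such peptides, was at 554 ± 101 CPM with LTβR-Ig and 739 ± 29.5 CPM in control (SD, n = 4 each) and lay below all controls in 4 of 4 libraries, without passing (log2 fold change -0.42, SE 0.13, edgeR adjusted p = 0.542). Pam, which amidates CGRP and adrenomedullin, had -0.03 (SE 0.45). Crcp, a component linked to CGRP receptor signalling, had -0.36 (SE 0.27), and Gpr182, an endothelial receptor gene, 0.21 (SE 0.91). The median over the 5 tested genes of the calcitonin family list was -0.03, beside 0.00 over all tested genes.

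Genes of the adrenergic and catecholamine list went either way, with a median log2 fold change of 0.12 over 9 tested genes, of which 4 were negative and 5 positive. The monoamine oxidase genes Maob and Maoa, whose products break down catecholamines, had log2 fold changes of -0.13 and 0.41 with overlapping groups.

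All 8 tested genes of the parathyroid hormone list had a positive log2 fold change, with a median of 0.96, and none passed in the edgeR test. Of the 8, 1 was higher without overlap between the groups, as were 2.36% of all tested genes. Dmp1, Nr4a2, Slc8a3 and Tnfrsf11b had log2 fold changes of 0.48 to 1.20 with wide SEs of 0.57 to 0.91, and overlapping groups. Tnfsf11, which encodes the osteoclast factor RANKL, was at 180 ± 73.1 and 75.1 ± 12.7 CPM (LTβR-Ig and control; SD, n = 4 each; log2 fold change 1.26, SE 0.29, edgeR adjusted p = 0.251), and all 4 LTβR-Ig libraries lay above the controls. Mmp13, a collagenase gene, was at 1745 ± 820 and 873 ± 52.9 CPM (log2 fold change 1.00, SE 0.30, edgeR adjusted p = 0.482). DESeq2 called Tnfsf11 (adjusted p = 0.00169) and Mmp13 (adjusted p = 0.0368). Wif1, a Wnt inhibitor gene, had 0.05, and Bglap, the osteocalcin gene, whose reads may be shared with close paralogs, 0.45 (SE 0.75). Values of Tnfsf11, Mmp13 and Bglap in these libraries were known when the list was made, so it is not independent evidence of its direction. Beside it, osteoblast and osteocyte markers, which share Bglap, Dmp1 and Sost with the list, had a median of 0.44 over 12 tested genes.

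The machinery of cyclic AMP signalling had a median of 0.10 over 43 tested genes. Gnas, which encodes the Gs α subunit, was at 332 ± 33.6 CPM with LTβR-Ig and 395 ± 31.1 CPM in control (SD, n = 4 each) and was lower in 4 of 4 libraries (log2 fold change -0.25, SE 0.11, edgeR adjusted p = 0.766). Gnb1, a G protein β subunit gene, was higher in 4 of 4 libraries at 440 ± 25.3 and 366 ± 27.9 CPM (log2 fold change 0.27, SE 0.09, edgeR adjusted p = 0.609). Prkar1a, a regulatory subunit gene of protein kinase A, had 0.17 and the coactivator gene Crebbp -0.06. DESeq2 also called Creb1 and Akap12, which lie outside the naming rule. Creb1, the cyclic AMP responsive transcription factor, was at 48.6 ± 28.3 and 7.44 ± 1.53 CPM (LTβR-Ig and control; SD, n = 4 each), a log2 fold change of 2.71. Its adjusted p was 4.15e-06 in DESeq2 and 0.165 in edgeR. Akap12, a scaffold for protein kinase A, was at 70.5 ± 2.07 and 110 ± 16.1 CPM, a log2 fold change of -0.65. Its adjusted p was 0.00251 in DESeq2 and 0.162 in edgeR.

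Receptor kinases, arrestins and trafficking proteins, which desensitise, anchor or recycle receptors, had a median of 0.14 over 15 tested genes. Slc9a3r1, a scaffold that binds PTH1R, had a log2 fold change of 0.42 (SE 0.21), Rgs2 -0.05 and Nsf 0.24. Arrb1, the β-arrestin 1 gene, ranged from 1.20 to 88.8 CPM with LTβR-Ig and from 0.336 to 109 CPM in control. Genes induced by cyclic AMP had a median of 0.11 over 20 tested genes, with Fos at 0.52, Dusp1 at 0.45 and Egr1 at 0.61 and overlapping groups for each. Gem, also called by DESeq2 and outside the naming rule, had 0 counts in all 4 LTβR-Ig libraries and 2.80 ± 1.96 CPM in control libraries (SD, n = 4).

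Other nerve and hormone receptors had medians of 0.01 over 15 and 0.04 over 31 tested genes. Vipr2, a receptor for vasoactive intestinal peptide, was at 7.42 ± 6.36 and 22.7 ± 10.7 CPM (LTβR-Ig and control; SD, n = 4 each; log2 fold change -1.61, SE 0.65, edgeR adjusted p = 0.743). Adcyap1r1, Cnr2 and Gabbr1 had -0.68, -0.67 and 0.40 with overlapping groups. S1pr1, a receptor for sphingosine 1-phosphate, was higher in 4 of 4 libraries, at 369 ± 39.8 and 256 ± 23.7 CPM (log2 fold change 0.53, SE 0.11, edgeR adjusted p = 0.214), and DESeq2 called it (adjusted p = 0.0114). S1pr3, Ghr and Ptgfr, the most abundant other members, had -0.15, 0.11 and 0.05.

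**Figure D5:**
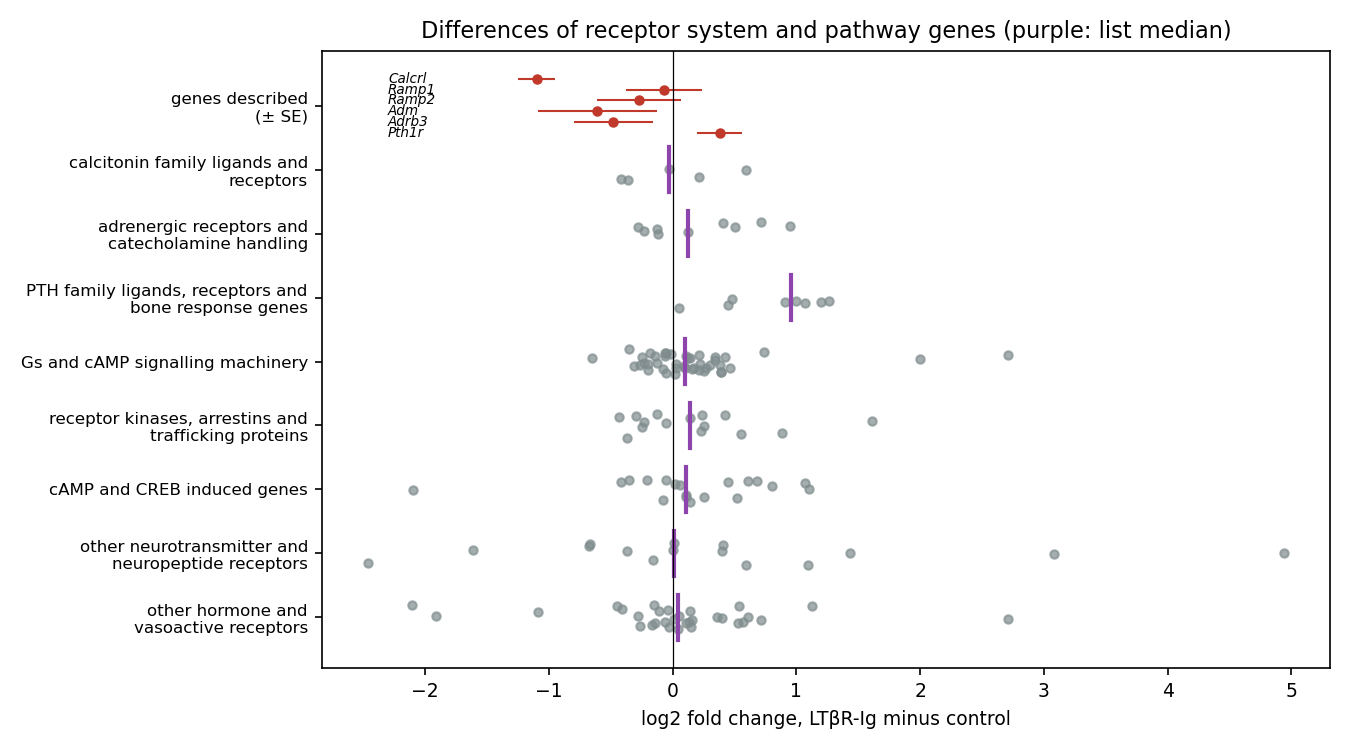
Log2 fold change (LTβR-Ig minus control) of the 6 tested receptor system genes with their SE, and below them of each tested gene of the 8 lists, with the list median in purple; Gem, at 0 counts in LTβR-Ig libraries, is not drawn. Calcrl stands at -1.10, the parathyroid hormone list has a median of 0.96, and the other list medians lie between -0.03 and 0.14.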

How the data were processed

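The authors deposited raw counts per gene, whole numbers with no normalization, for 52636 genes and 8 libraries. Per the submitters' processing notes they used HISAT2, HTSeq and the build mm10; versions, the annotation release and whether counting used strand are not stated there. RNA was read as pairs of 76 bp, per the labels' protocols. Groups came from the sample titles. Symbols and coordinates came from GENCODE M21 (GRCm38, mm10) by unversioned gene ID.

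Counts were tested with edgeR 4.0.16 in R 4.3.3 on all 8 libraries: TMM scaling, filterByExpr (minimum count 10, minimum total 15), robust glmQLFit and Benjamini-Hochberg adjustment over 16045 genes, with 0.05 as the threshold. The steps were tested on simulated data. TPM used the union of annotated exons, or the principal transcript. Chi-square per degree of freedom between libraries of a group was 139.8 to 264.7, far above counting error. This check asked only whether a library was a second read of the same RNA pool, and none looked like one. It does not measure quality. All libraries were kept.

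The genes and lists were chosen with earlier results of these data known. The naming rule took the 4 most abundant tested genes of each functional list, any past the threshold, the 3 most abundant of 4 marker lists, and for Calcrl and Pth1r the 3 genes with the highest correlation (mean of at least 5 CPM). Some genes that the rule names are not reported here, though they count in the list totals. Other named genes were chosen after their values were seen. Alternatives were DESeq2 1.42.0, limma 3.58.1 (voom), other scalings and filters, a replicate block and leaving out each library. DESeq2 gave no adjusted p for some genes, which were not counted.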

Additional observations from a re-analysis of the deposited data

Results flagged for a closer look

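In 6 of 124 sets of 4 libraries examined (1 measured value in 1 group), a single library stood apart from the other 3; chance gives this for about 1 in 20. Control replicate 4 stood out for Adrb1, with 1.14 CPM where the other controls had 0 to 0.0535 CPM, and for Arrb1, with 109 CPM where they had 0.336 to 1.82 CPM. LTβR-Ig replicate 3 stood out for Cnr2, a cannabinoid receptor gene, with 16.6 CPM and a range of 4.83 to 6.83 CPM in the rest of its group, and for Fabp4, an adipocyte gene, with 270 CPM and a range of 53.9 to 79.8 CPM. The growth hormone receptor gene Ghr had 777 CPM in LTβR-Ig replicate 4, while the rest of that group had 249 to 334 CPM. The prostaglandin receptor gene Ptgfr was low in control replicate 3, with 196 CPM beside 300 to 321 CPM in the other controls.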

How the results depend on the processing

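The log2 fold changes of Calcrl, Adrb3 and Adm stayed negative and that of Pth1r positive in every alternative run, and all moved by less than 1 SD between replicates. Ramp1 took both signs, and Ramp2 stayed negative. Calls over all genes moved: against 6 lower and 0 higher, DESeq2 gave 111 and 90, limma-voom 12 and 2, and the strict filter 17 and 5. DESeq2 size factors and no filter each gave 2 higher. Leaving out each library gave 2 to 7 lower and 0 to 2 higher, and leaving out LTβR-Ig replicate 2 together with control replicate 3 gave 1 lower. With the replicate number as a block 1 gene was lower, and the block gave Calcrl -1.11 (SE 0.12, against 0.15 in the main fit). The block also narrowed the SE of Ramp1 (0.24 against 0.31), Ramp2 (0.29 against 0.34) and Adm (0.33 against 0.48). For Pth1r it stayed at 0.18, and for Adrb3 it widened (0.35 against 0.32). The submitters' design text speaks of pairs, but the labels do not say that equal numbers share an animal, litter or day. With the group means removed, same-numbered libraries had correlations of 0 to 0.075 between the groups, and those with unlike numbers -0.087 to 0.079. The main fit did not pair them. Low correlations cannot show that the libraries were unpaired. Of the genes in the functional lists DESeq2 called 6, and without each library 0 to 1 passed (Creb1 without LTβR-Ig replicate 4). At an unadjusted p under 0.05 the lower ones numbered 4 with the strict filter and 4 to 8, and the higher ones 9 to 13, without each library. With the principal transcript length Ramp1 took 29.1 and 26.9% and Ramp2 68.6 and 73.1% of Ramp TPM (LTβR-Ig and control); without each library Ramp1 took 42.3 to 47.1 and 41.7 to 45.5%, Ramp2 47.3 to 52.1 and 54.5 to 58.3%, and Ramp3 in LTβR-Ig 1.59 to 5.55%. The ratio of Calcrl to summed Ramp TPM was 0.487 and 0.901 with the principal length, and 0.867 to 1.08 and 1.74 to 2.15 without each library (LTβR-Ig and control). The causes were not tested. Ramp3 and Adrb1 were too low to test, and their counts differed widely between libraries of a group, which limits what can be said of them.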
